A study of Rattus norvegicus with 9 samples.

Results

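Cytosolic ribosomal protein genes were followed in rat thoracic aorta, where each offspring of a diabetic mother was set against an offspring of a control mother. The members were all probes with 1 gene symbol that named a small subunit protein (Rps, Rpsa) or a large subunit protein (Rpl, Rplp0), without the ribosomal S6 kinases. They comprised 57 probes of 51 genes, among 19478 features left after probes of a gene were averaged. Of the 51 genes, 20 encode proteins of the small subunit, 27 proteins of the large subunit, and 4 (Rpl3l, Rpl36al1, Rpl37l1 and Rps27l) carry the names of paralogs. A further 30 listed subunit genes, Rps18, Rpl3 and Rplp1 among them, were not analysed here.

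Ribosomal proteins form the small subunit, which reads the messenger RNA, and the large subunit, which joins amino acids and feeds the new chain into an exit tunnel. Their messenger RNAs are among the most abundant of any cell. Most of them begin with a terminal oligopyrimidine (TOP) tract, through which mTOR signalling sets their translation together with that of several elongation factors.

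The study hybridised RNA of 1 offspring of a diabetic mother (DMO) and 1 offspring of a control mother (CMO) to each 2-colour Agilent array. Pairs are named by the DMO animal: 193 was set against CMO 189, 194 against 190, 197 against 191, 199 against 192, and 220 against 216. A dye swap was made for every pair but 194, which has a single array, so there were 9 arrays, all of the same labelled date. Where 5 pair values are listed without names, they follow the order 193, 194, 197, 199 and 220. Below, a Cy3 array carries the DMO animal on Cy3 and a Cy5 array carries it on Cy5. Strain, age, sex, litter and the way diabetes was induced are not given in the labels, so animals of a group may be littermates, and p-values measure only the spread over these 5 pairs. Ratios carry no expression level, so the tissue label could not be checked against its markers.

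Values are log ratios as deposited, taken as log2, because no source used here names the base. None says which animal a positive value stands for, so directions are given only as positive or negative. The Cy5 arrays were read as already turned to run the same way as the Cy3 arrays, a reading that no source used here states, and the values with the Cy5 arrays turned are given as well. Gene names rest on a numbering of features that was chosen from these values through the agreement of probes of the same gene. Agreement among probes is therefore a description here and supports nothing. Whole aorta was measured, so a change in the share of a cell type and a change of RNA per cell cannot be told apart.

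Start sites of 6 members are shown first, 4 with a tract of C and T at the start and 2 without, because the tract marks many genes of this family and was not used to choose them. Promoter sequences from RefSeq (build GRCr8) matched 42 of the 51 genes by symbol. Each line gives 20 bases before the annotated start and the first 10 bases from it, with capitals marking an unbroken run of C and T that opens with C at the start and holds at least 4 more C or T. Rpl10, Rpl19, Rps15 and Rps26 have such a tract at the annotated start, and Rps13 and Rps10, which had high ratios below, do not.
Rpl10: atgcgcaggcgtgggagcgtCTCTTTTCCT
Rpl19: gagcccgcgaccagcaagctCTTTCCTTTC
Rps15: gcagccgctgacaccgcttcCTTTTCCCag
Rps26: gtcgggagagccgccgggtcCTCTTTCgag
Rps13: cctgtgccgtttcctacctcgttctctctt
Rps10: gctgcgccgcgcacgccccttcctttccag
The Rpl10 window lies at chrX:157205830-157205859 on the plus strand and that of Rpl19 at chr10:83519044-83519073 on the plus strand. The other 4 lie on the minus strand, Rps15 at chr7:10068106-10068135, Rps26 at chr7:1643395-1643424, Rps13 at chr1:180009651-180009680 and Rps10 at chr20:5700735-5700764.

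A tract directly at the annotated start, read on the gene's own strand, was present in 14 of the 42 members with a promoter sequence, or 33.3%, against 2.63% of all 33469 promoters in the table. Somewhere between 10 bases before the start and 15 bases from it, 30 members held the same letters (71.4%), against 28.9% of all promoters. The annotated start can miss the true one by some bases, as in Rps10, where the run of C and T begins before it. Members with a tract at the start had a median mean ratio of 0.12, and 10 of 14 were positive. The 28 without one had a median of 0.19, and 22 were positive, where 51.3% of all features were. As this split follows the annotated start, it cannot compare messenger RNAs with and without a tract. The genes are spread over 18 chromosomes.

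Ribosomal protein genes lay mostly on the positive side. The mean over the 5 pairs was positive for 37 of the 51 members and negative for 14, where 51.3% of all features were positive. Means ran from -0.39 for Rps26 to 0.48 for Rps13. The median over members, averaged over pairs, was 0.15 ± 0.14 (SD, n = 5 pairs), against 0.0055 ± 0.047 for all features. The pair values were 0.33, 0.12, -0.022, 0.26 and 0.076. Pairs 193 and 199 were thus the highest, and pair 197 alone fell below 0.

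Single arrays varied within a pair. On the Cy3 and then the Cy5 array, the member median was 0.25 and 0.27 for pair 193, 0.30 and 0.23 for pair 199, and 0 and 0.019 for pair 197. Pair 220 had 0.17 on its Cy3 array and 0 on its Cy5 array, so its lean was seen in 1 orientation. The medians of 0, on this array and on the Cy3 array of pair 197, are the value of Rps12, deposited as exactly 0. In pair 194 the single array gave 0.12. The medians of all features on the 9 arrays lay between -0.055 and 0.079. The number of members above 0 was 44 in pair 193 and 47 in pair 199, where 53.1% and 43.1% of all features were positive. Pairs 194, 197 and 220 had 35, 25 and 31 members above 0, where the shares of all features were 44.9%, 60.3% and 53.8%.

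**Figure D1:**
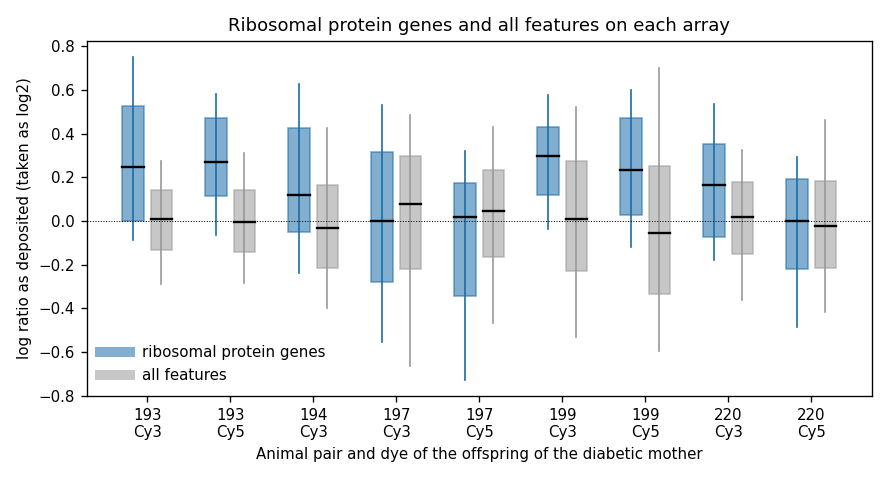
Log ratio as deposited (taken as log2, vertical axis) on each of the 9 arrays (horizontal axis), for the 51 ribosomal protein genes in blue and all 19478 features in grey. Boxes span the 25th to 75th percentile with the median as a line, and thin lines run from the 10th to the 90th percentile. The blue medians of pairs 193 and 199 lie between 0.23 and 0.30, and those of pair 197 at 0 and 0.019.

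No member passed an adjusted p of 0.05 in limma's test across all features, and no other feature did (0% called). The lowest adjusted p was 0.926, among members as among all features. An unadjusted p under 0.05 was reached by 17 members. Of these, 16 were positive, where 2.23% of all features reached it on that side, and 1, Rps26, was negative, where the background was 2.54%. A positive ratio in all 5 pairs was held by 12 of 51 members, against 3.34% of all features. A negative ratio in all 5 pairs was held by 1 member, Rpl34, against 2.82%. On all 9 arrays 5 members were positive, against 0.329% of all features, and none was negative, against 0.339%. The counts of unadjusted p are no calls, and the members share their arrays. Without pair 197, 19 members were positive in the 4 remaining pairs, against 5.26% of all features. Such a count over 4 pairs can only stay or rise, and without the other pairs it was 13 to 15.

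**Figure D2:**
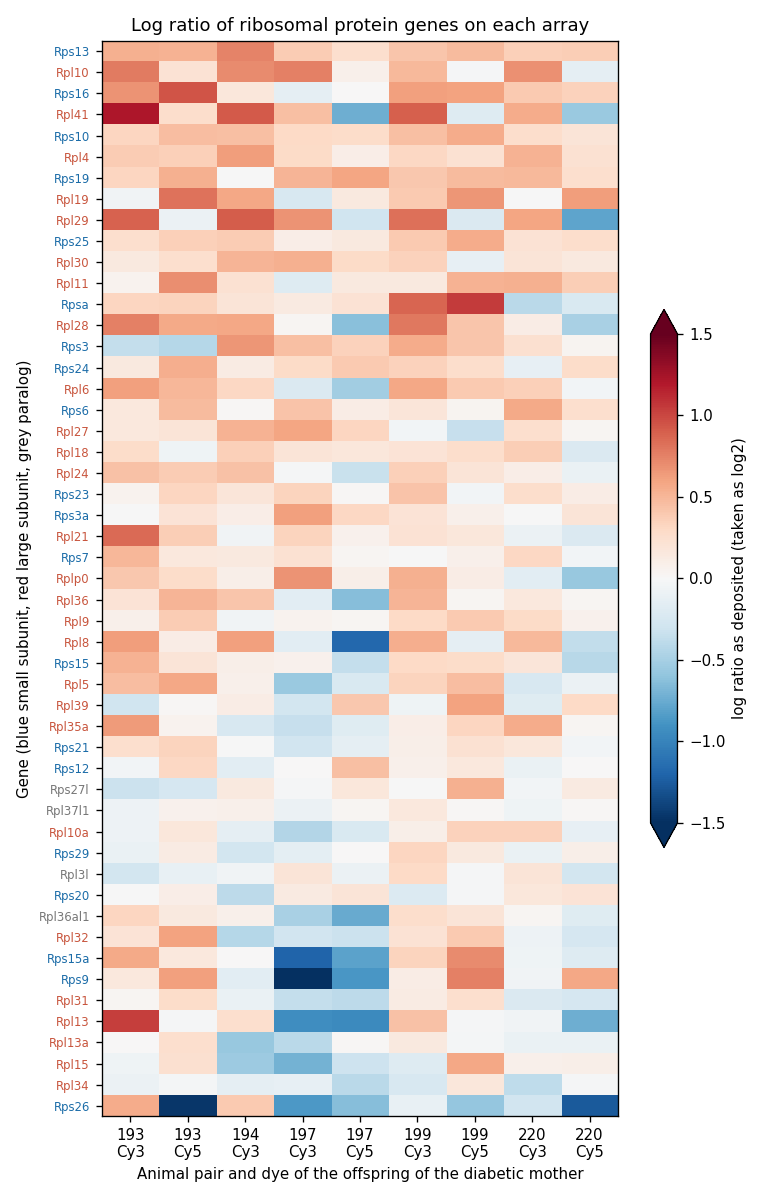
Log ratio as deposited (colour, taken as log2) of the 51 ribosomal protein genes, in rows ordered by their mean over pairs, on the 9 arrays in columns. Rps13 at the top (mean 0.48) is positive on all 9 arrays, and Rps26 at the bottom (mean -0.39) on 2 of them.

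The small subunit genes were the more even group between pairs. Within pair 197 they spread more than the large subunit genes (SD over genes 0.47 against 0.35), and within pair 194 less (0.29 against 0.41). The small subunit pair medians were 0.32, 0.11, 0.17, 0.29 and 0.14, with a mean of 0.21 ± 0.095. The small subunit median was positive on all 9 arrays (0.11 to 0.33). Of 20 members 15 had a positive mean (background 51.3%), and 8 were positive in all 5 pairs (background 3.34%).

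Rps13, which binds ribosomal RNA of the small subunit, had the highest mean of the members, at 0.48 ± 0.17. Its 5 Cy3 arrays were at 0.53, 0.74, 0.38, 0.42 and 0.36, and its 4 Cy5 arrays, for pairs 193, 197, 199 and 220, at 0.53, 0.25, 0.48 and 0.37. All 9 arrays were positive, and its dye part, defined below, was 0.0093 ± 0.040. The mean stayed between 0.41 and 0.52 when 1 pair was left out.

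Rps10, a small subunit protein near the messenger RNA's path and 1 of those altered in inherited Diamond-Blackfan anaemia in humans, was at 0.37 ± 0.11. It lay between 0.20 and 0.55 on the 9 arrays, with pair means of 0.39, 0.45, 0.29, 0.50 and 0.23. Rps25, which serves internal ribosome entry on viral messenger RNAs, was at 0.30 ± 0.13, with arrays between 0.095 and 0.55. Rps6, the substrate of the S6 kinases, was at 0.23 ± 0.16. Its lowest array was at 0.022 in pair 194 and its highest at 0.57 in pair 220. These genes were thus positive throughout, though Rps6 came close to 0 in pair 194.

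Rps23, a protein of the decoding centre, had nearly equal pair means of 0.19, 0.18, 0.18, 0.19 and 0.19, and its SD of 0.0051 was the smallest of the members. The single arrays did not share this evenness. The Cy3 arrays of Rps23 were at 0.056, 0.18, 0.34, 0.43 and 0.26, and the Cy5 arrays of the swapped pairs at 0.32, 0.019, -0.044 and 0.11. The pair means thus met at 1 level while the arrays of a pair lay far apart.

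Other small subunit genes went different ways. Rps26, which contacts messenger RNA at the exit of its channel, had the lowest mean of the members as deposited, at -0.39 ± 0.47, but its arrays differed widely. The Cy3 arrays of Rps26 were at 0.56, 0.39, -0.86, -0.11 and -0.28, and the Cy5 arrays of the swapped pairs at -1.46, -0.63, -0.59 and -1.26. Its mean was -0.58 without pair 194 and -0.29 without pair 220, and 4 of 5 pairs were negative. That sign came mainly from the Cy5 arrays, with a Rps26 mean of -0.98 on these and -0.061 on the Cy3 arrays alone. With the Cy5 arrays turned, the Rps26 mean was 0.40 and 4 of 5 pairs were positive, so its place as the lowest member holds only for the values as deposited.

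Rps9 and Rps15a stood out in pair 197. Rps9, a protein that binds ribosomal RNA early in assembly, was at -1.49 and -0.87 on the arrays of pair 197, and at -0.16 to 0.76 on the others (mean -0.053 ± 0.67). Rps15a was at -1.20 and -0.81 in pair 197, and at -0.19 to 0.71 elsewhere (mean -0.047 ± 0.60). These SDs, with that of the large subunit gene Rpl13, were the largest of the 51 members, whose median SD over pairs was 0.24 against 0.23 for all features.

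Large subunit genes varied more between pairs than those of the small subunit. Their pair medians were 0.37, 0.25, -0.18, 0.27 and 0.060, with a mean of 0.15 ± 0.22. The difference between subunits was largest in pair 197, where 13 of 20 small subunit genes but 10 of 27 large subunit genes were positive. These shares were 65% and 37.0%, against 60.3% of all features, so the small subunit lay near the background there. The difference between subunits was not tested. It moved with the dyes in pair 220, where the large subunit median was 0.16 on the Cy3 array and -0.10 on the Cy5 array. Without pair 197 the large subunit median was 0.24, and without pair 193 it was 0.10. Of 27 members 20 had a positive mean (background 51.3%), and 4 were positive in all 5 pairs (background 3.34%).

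Pair 197 also carried large ratios of cell type lists. The median of 11 of 13 listed adipocyte markers was 2.71 there and 2.26 in pair 199, and lay between -0.20 and 0.13 otherwise. The median of 9 of 12 smooth muscle markers was -0.90 in pair 197 and -0.75 in pair 193, and lay between -0.018 and 0.19 otherwise. The ribosomal medians in pairs 193, 197 and 199 were 0.33, -0.022 and 0.26. The endothelial pair medians were 0.28, 0.20, 0.42, -0.10 and 0.030, and the leukocyte median lay between -0.22 and 0.11. The fibroblast median lay between -0.45 and 0.39. The median of 5 Schwann cell markers lay between -0.063 and 0.25 in 4 pairs and at 0.89 in pair 194. The heat shock median was 1.34 and 0.95 in pairs 199 and 220, and between -0.66 and -0.073 in the others. Single markers spread more widely than these medians, as with Scn7a at -0.97 in pair 193 and 5.29 in pair 194. The part of these cells and of stress in the ribosomal values was not tested.

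Rpl4, which lines the exit tunnel, was the 1 large subunit gene positive on all 9 arrays. Its Cy3 arrays were at 0.38, 0.63, 0.29, 0.31 and 0.52 and its Cy5 arrays of the swapped pairs at 0.36, 0.10, 0.23 and 0.23, with a mean of 0.37 ± 0.16. The Cy3 arrays gave the higher value in each swapped pair, by a small margin in pair 193. Rpl10, a late-joining protein beside the peptidyl transferase centre, had a mean of 0.43 ± 0.19, next below Rps13. It was positive in every pair mean, but its arrays ran from 0.49 to 0.78 on Cy3 and from -0.14 to 0.22 on Cy5. Rpl30 and Rpl18 were also positive in all 5 pairs, at 0.28 ± 0.17 and 0.19 ± 0.11.

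The proteins that carry 5S ribosomal RNA and can bind MDM2, Rpl5 and Rpl11, ran together in part. Rpl11 was at 0.37, 0.23, -0.022, 0.33 and 0.45 (mean 0.27 ± 0.18). Rpl5 was at 0.52, 0.073, -0.39, 0.40 and -0.16 (mean 0.089 ± 0.38). The genes thus shared high values in pairs 193 and 199, were both lowest in pair 197, and differed most in pair 220. Rpl13 was at 1.04 and -0.023 on the arrays of pair 193 and at -0.93 and -0.96 in pair 197, and its mean was -0.074 ± 0.59.

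On the negative side of the large subunit, no gene lay far from 0. Rpl34 was at -0.14 ± 0.098 and negative in each pair mean (-0.27 to -0.033), though its Cy5 array of pair 199 was at 0.17. Rpl15 was at -0.14 ± 0.36, with -0.54 and -0.51 in pairs 194 and 197 and 0.080 to 0.19 in the others. Rpl13a, a common reference gene for quantitative PCR, was at -0.13 ± 0.27, with -0.57 in pair 194 and -0.19 to 0.13 in the others.

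Among other reference genes of this family, Rpl32 was at -0.035 ± 0.37, Rpl19 at 0.35 ± 0.25 and the stalk protein Rplp0 at 0.15 ± 0.31. Rpl32 ran from -0.43 in pair 194 to 0.40 in pair 193, and Rplp0 from -0.36 in pair 220 to 0.38 in pair 197. The reference genes thus differed from each other and between pairs, and their list median ran from -0.17 to 0.36. Rplp0 has 2 probes. One was at -0.034 ± 0.16 and the other at 0.34 ± 0.50, with -0.082 and 0.85 in pair 197.

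Probes of the same gene also differed for Rps16 and Rpl36al1. The probes of Rps16, a small subunit protein close to the P-site tRNA, were at 0.070 ± 0.20 and 0.69 ± 0.67. In pair 193 they were at 0.26 and 1.36, and in pair 199 at 0.068 and 1.14. The mean of Rps16, 0.38 ± 0.35, was thus carried mostly by 1 probe. The probes of Rpl36al1 were at 0.053 and -0.12, and differed most in pair 194 (0.50 and -0.35). Of 6 genes with 2 probes, Rpl24, Rpl27 and Rps3a had probe means no more than 0.15 apart on the log2 scale. Ribosomal protein genes have many processed pseudogenes and near copies, and which copies each probe reads was not tested.

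The 4 genes named as paralogs had small ratios. Rpl3l, a muscle form of Rpl3, was at -0.021 ± 0.13, Rpl36al1 at -0.032 ± 0.35, Rpl37l1 at 0.020 ± 0.055 and Rps27l, a p53 target in human cells, at 0.051 ± 0.21. None was positive or negative in all 5 pairs. Their median was between -0.10 and 0.18 in the pairs. With 4 genes, no difference from the other members was shown.

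Several members had unlike values on the Cy3 and Cy5 arrays. If the Cy5 arrays were not turned before deposit, this difference is the group difference. Whether they were turned was not tested, so the dye and the group were not told apart here. Of 11 adipocyte markers, 9, 10, 11 and 3 kept their sign on both arrays of pairs 193, 197, 199 and 220. For the 8 heat shock genes these counts were 7, 5, 8 and 8. Heat shock medians on Cy3 and Cy5 were -0.45 and -0.41 for 193, 1.38 and 1.01 for 199, and 0.96 and 0.85 for 220. Pair 197 had 0.015 and -0.16. The dye part, 0.5 of the Cy3 array minus the Cy5 array of a swapped pair, averaged 0.55 ± 0.095 for Rpl29 (SD, n = 4 pairs) and 0.54 ± 0.049 for Rpl41. It was 0.41 ± 0.47 for Rps26, from -0.11 in pair 197 to 1.01 in pair 193, 0.38 ± 0.11 for Rpl8 and 0.32 ± 0.071 for Rpl10. Rpl41, the shortest ribosomal protein, shows this array by array. Its Cy3 arrays were at 1.21, 0.92, 0.45, 0.90 and 0.56, and its Cy5 arrays of the swapped pairs at 0.27, -0.73, -0.20 and -0.55. Rpl29 was at 0.59 to 0.91 on Cy3 arrays and at -0.79 to -0.089 on Cy5 arrays, without overlap.

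Opposite dye parts were seen for Rps9 (-0.29 ± 0.045), Rpl19 (-0.27 ± 0.13) and Rpl39 (-0.27 ± 0.085). No member passed limma's test of the dye part across all features (0% called), and the lowest adjusted p was 0.131. An unadjusted p under 0.05 was reached on the positive side by 8 members, against 12% of all features, and on the negative side by 4, against 9%. The dye part was positive in all 4 swapped pairs for 14 members and negative for 10, where the shares of all features were 19.6% and 14.9%. Of the 14 members positive in all 4 swapped pairs, 11 belonged to the large subunit (40.7% of its 27 genes) and 2 to the small subunit (10% of its 20 genes). Over all members, 26 dye means were positive and 25 negative.

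**Figure D3:**
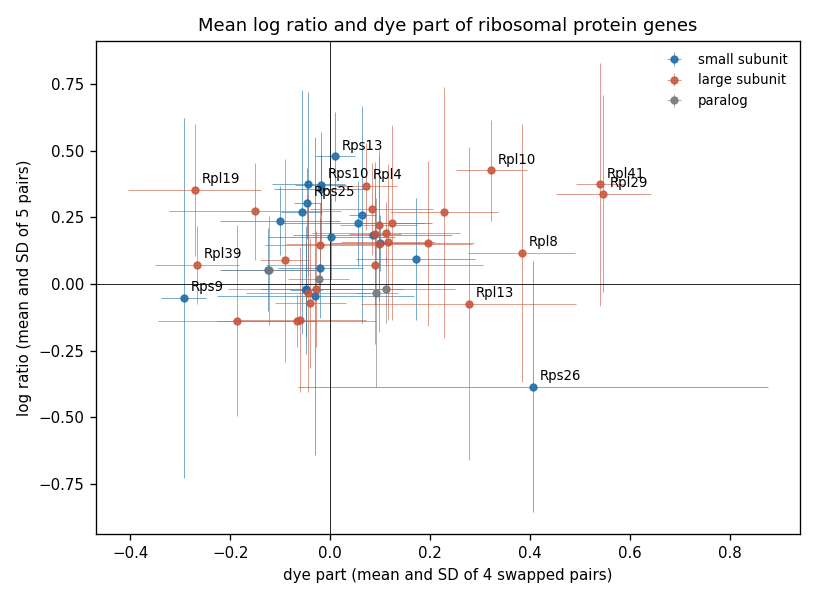
Mean log ratio over 5 pairs (vertical axis, taken as log2, with SD) against the dye part over 4 swapped pairs (horizontal axis, same scale, with SD) for the 51 ribosomal protein genes. Rps13 (0.48 and 0.0093) and Rps10 (0.37 and -0.019) have high means at dye parts near 0, while Rpl29 and Rpl41 have dye parts of 0.55 and 0.54.

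Members more often had the same sign on both arrays of a pair than features at large. In each of pairs 193, 197 and 199 it was the same for 37 of 51 members, and for 28 members of pair 220. Over all features the shares were 43.9%, 68.4%, 44.1% and 46.5%, while the members were at 72.5% in each of the first 3 of these pairs and 54.9% in pair 220. In all, 61 of 204 combinations of member and swapped pair had opposite signs, in 33 different genes. Counts of opposite signs were not made over all features. The same-sign shares above are the nearest background for the 61 combinations, and the 33 genes have none. The small subunit had the same sign on both arrays for 18 of 20 genes in pair 199, and the large subunit for 17 of 27. Across members, the arrays of the swapped pairs correlated at r = 0.085, 0.61, 0.11 and 0.14 for 193, 197, 199 and 220 (n = 51 genes that share their arrays). Over all features the same values were 0.18, 0.67, -0.19 and 0.068, so pair 197 was the highest there too. The 20 small subunit genes were at 0.083, 0.90, 0.71 and 0.48, and the 27 large subunit genes at -0.13, 0.38, -0.35 and -0.040.

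**Figure D4:**
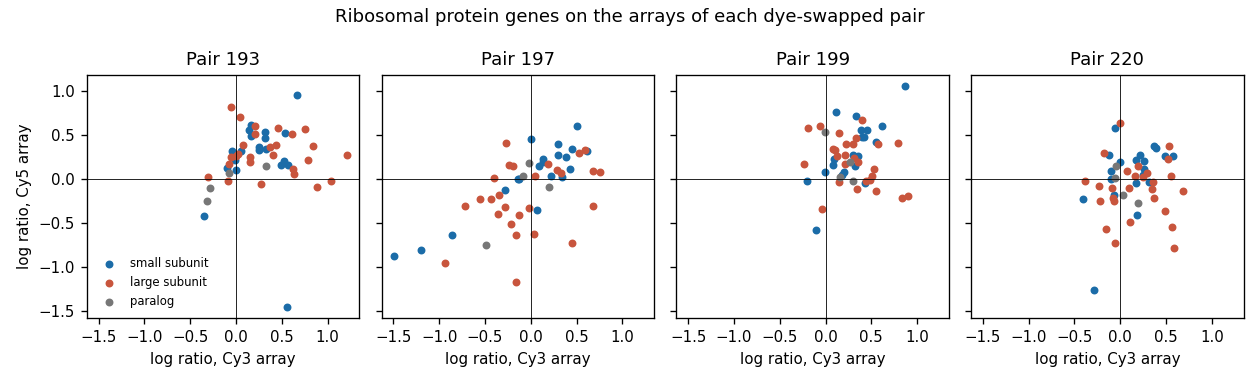
Log ratio (taken as log2) on the Cy5 array (vertical axis) against that on the Cy3 array (horizontal axis) of each swapped pair, 1 point per ribosomal protein gene. In pairs 193 and 199, 37 of 51 points have the same sign on both axes, and in pair 197 the points spread along the diagonal (r = 0.61).

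Under the other reading, in which the sign of each Cy5 array is changed, the lean of the list was smaller. The median over members became 0.037 ± 0.067 over the 5 pairs, with pair values of -0.049, 0.12, 0.015, 0.013 and 0.085. The small subunit median became 0.00083 ± 0.068 and the large subunit median 0.097 ± 0.10. A positive ratio in all 5 pairs was then held by 13 members, 10 of them of the large subunit, against 10.2% of all features, and a negative one by 4, against 9.76%. The 13 positive ones were led by Rpl29 (0.62 ± 0.18), Rpl41 (0.62 ± 0.17), Rpl8 (0.43 ± 0.14) and Rpl10 (0.40 ± 0.18). Rps13 would be at 0.16 ± 0.33 and Rps10 at 0.075 ± 0.22. No member passed in that reading (limma lowest adjusted p = 0.117 over all features). An unadjusted p under 0.05 was reached by 9 members on the positive side, against 8.23% of all features, and by 2 on the negative side, against 7.84%.

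The other genes of protein synthesis were taken from lists. Of 20 listed symbols of other TOP messenger RNAs, mainly elongation and initiation factors, 11 were measured. All 11 had a positive mean, where 51.3% of all features did. The list median was 0.28 ± 0.15, with pair values of 0.18, 0.51, 0.36, 0.20 and 0.17. Positive in all 5 pairs were 8 of 11 (background 3.34%), and none passed the adjusted test. In pair 197, where the ribosomal median was -0.022, all 11 were positive, against 60.3% of all features. The order of pairs thus differed from that of the ribosomal protein genes.

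The highest of these genes as deposited were Hnrnpa1, an RNA-binding protein (0.41 ± 0.18), and Naca, which binds nascent chains (0.39 ± 0.12). Both rest on the deposited signs of the Cy5 arrays, since with those turned Hnrnpa1 was at -0.15 ± 0.40 and Naca at -0.20 ± 0.45. The Naca arrays lay between -0.22 and 0.52 on Cy3 and between 0.38 and 1.01 on Cy5. The lowest were Tpt1 (0.12 ± 0.14) and the elongation factor subunit Eef1b2 (0.14 ± 0.10). Eef1a1, which brings aminoacyl-tRNA to the ribosome, was at 0.17, 0.29, 0.66, 0.19 and 0.0064 in the pairs. Eef2, the translocase, differed widely, from -0.34 in pair 220 to 1.02 in pair 197. On single arrays none of the 11 was positive on all 9. With the Cy5 arrays turned, their median was 0.097 ± 0.24. A tract at the annotated start was found in 0 of the 9 with a promoter sequence, which says only that the letters are not at that start.

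Ribosome biogenesis genes showed no such positive lean in their median. Of 20 listed genes 14 were measured, and 6 had a positive mean, where 51.3% of all features did. The list median was -0.025 ± 0.096. In pair 197 the genes spread widely (SD over genes 0.69), from -1.59 to 0.51. There 8 of 14 were positive, against 60.3% of all features. The nucleolar proteins Nop56 (-0.39 ± 0.45) and Dkc1 (-0.35 ± 0.30) had the lowest means as deposited, with -1.14 and -0.83 in pair 197. They were the 2 of 14 genes negative in all 5 pairs, against 2.82% of all features. An unadjusted limma p under 0.05 on the negative side was also reached by 2 of 14, against 2.54%, and none passed the adjusted test. With the Cy5 arrays turned, Nop56 was at 0.10 ± 0.13 and Dkc1 at 0.27 ± 0.29. The assembly factor Bysl (0.12 ± 0.21) and the RNA polymerase I subunit Polr1b (0.094 ± 0.17) had the highest, and were at 0.021 and 0.0059 with the Cy5 arrays turned.

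Mitochondrial ribosomal protein genes, whose products serve the separate ribosome of that organelle, were centred near 0 as well. Of 44 measured, 25 had a positive mean (56.8%, against 51.3% of all features). The median was 0.018 ± 0.15, with pair values of -0.098, 0.16, -0.050, 0.20 and -0.12. Mrpl42 (0.29 ± 0.36) and Mrps33 (0.24 ± 0.20) were highest, and Mrpl48 (-0.32 ± 0.37) and Mrps5 (-0.31 ± 0.18) lowest. With the Cy5 arrays turned, Mrps33 was at 0.30, and Mrpl42, Mrpl48 and Mrps5 were at 0.00055, -0.0030 and -0.0045. Positive in all 5 pairs were 4 of 44, or 9.09%, against 3.34% of all features. In pair 193 cytosolic ribosomal genes were at a median of 0.33 while mitochondrial ones were at -0.098, and in pair 199 both were positive.

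**Figure D5:**
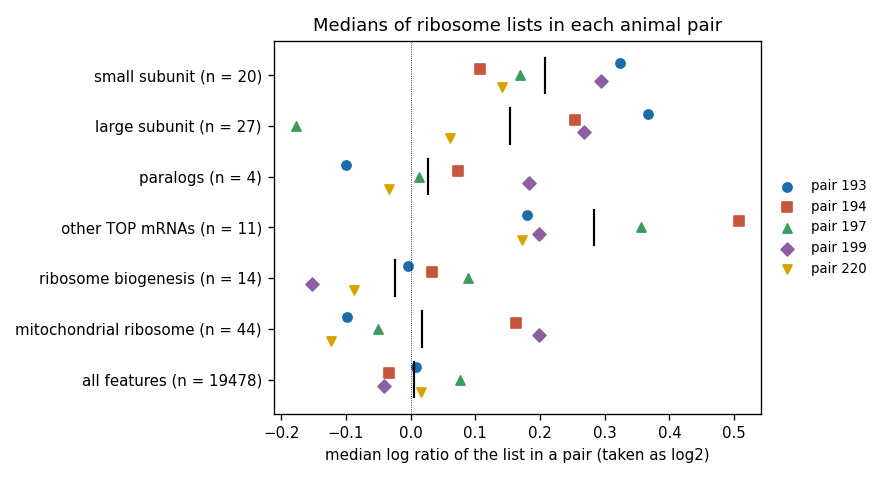
Median log ratio (horizontal axis, taken as log2) of each list (rows, with the number of genes) in each of the 5 pairs (symbols), with the mean over pairs as a bar. The small subunit and the other TOP mRNAs lie above 0 in all 5 pairs, and the large subunit lies at -0.18 in pair 197.

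Pairs ordered the members with some likeness, which is described here and was not tested. Across the 51 members, ratios in different pairs correlated positively in 9 of 10 pairings (r from -0.063 to 0.50, highest between pairs 193 and 199). Over the 19427 other features 6 of 10 pairings were positive, at r from -0.17 to 0.26. Pairs 193 and 199, where the members were at r = 0.50, were at -0.17 over the other features. These correlations are across genes, which are not independent replicates and share their arrays.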

How the data were processed

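The deposited table holds 1 log2 value (as taken here) per feature and array for 22575 features on 9 arrays. How the authors scanned, background-corrected and normalized the arrays is not given in the sources. RNA was extracted with Trizol and labelled as cRNA, per the labels' protocols. The series' design text counts 10 arrays, and the tenth was not analysed here. Signals and background flags were not used, so dim probes were kept. Precision is limited by the 5 animal pairs, since both arrays of a swapped pair carry the same animals. Platform annotation gave 1 symbol for 12750 probes, several for 5 and none for 9820, and gene IDs matched RefSeq for 50 of the 51 members.

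Probes of a symbol were averaged, then the arrays of an animal pair. limma 3.58.1 in R 4.3.3 tested the pair values against 0 over 19478 features, and the dye part over the 4 swapped pairs, with Benjamini-Hochberg adjustment at 0.05. It was tested on simulated data with independent noise and planted effects larger than any member mean. That test therefore does not cover effects of the size seen here. The members and lists were chosen with earlier results of these data known. Rpl41, Rpl36al1 and Rpl37l1 were added to the lists after the files were seen. Named were Rps10, Rps13 and Rps23, the 5 highest and 5 lowest means, members of 1 sign on all 9 arrays, the 5 largest dye parts, the 3 largest SDs, the paralog, stalk, 5S and reference genes, and the 3 genes whose probes differed most. Others named were chosen after their values were seen. Of the other lists, the 2 highest and 2 lowest means were named.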

Additional observations from a re-analysis of the deposited data

How the results depend on the processing

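The number of members past an adjusted p of 0.05 in the group comparison was 0 in limma, with 17 at an unadjusted p under 0.05. It was 0 under every alternative run except without moderation, where 1 member, Rps23, passed by its small SD. All 9 arrays with the pair as a replicate block also gave 0, with 16 at an unadjusted p, where 1393 of all 19478 features reached it. The number at an unadjusted p ranged from 9, without pair 193, to 20, with array weights, and was 10 without pair 199. The matching numbers over all features were 1244, 1318 and 612, against 929 with all pairs. For the dye part the number was 0 throughout, without a replicate block too. At an unadjusted p there were 12 members, and 6 without the block, where the numbers over all features were 4082 and 2971. The median over members ranged from 0.11 to 0.20 when 1 pair was left out, and from 0.037 with the Cy5 arrays turned to 0.18 with arrays scaled to one spread. Turning moved the small subunit median from 0.21 to 0.00083 and the median of other TOP mRNAs from 0.28 to 0.097. The large subunit median, 0.15, was 0.044 on the Cy5 arrays only, 0.10 without pair 193 and 0.24 without pair 197. The count of members positive in every pair, 12, ranged from 13 to 19 without 1 pair, where the share of all features was 5.26% to 8.20%, and 5 were positive on every array. Of 27 named members, 10 had the other sign with the Cy5 arrays turned, 8 on the Cy5 arrays only, 4 on the Cy3 arrays only and 5 without pair 197. The cause of these moves was not tested. Values of exactly 0 as missing, an alternative chosen after seeing the data, changed no sign.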

Other observations

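A value of exactly 0 was listed for 4 of 513 values of the ribosomal probes, or 0.780%, against 130 of 203175 values of all probes, or 0.0640%. The 4 values belonged to Rpl13a on the Cy3 array of pair 193, Rps12 on the Cy3 array of pair 197 and the Cy5 array of pair 220, and Rps29 on the Cy5 array of pair 197. The sources used here do not say what an exact 0 stands for. Rpsa, the laminin receptor and small subunit protein, named here after its values were seen, was at 0.87 and 1.05 on the arrays of pair 199 and at -0.41 and -0.23 in pair 220. The small subunit gene Rps3, likewise named after its values were seen, was at -0.35 and -0.42 in pair 193, where 44 of 51 members were positive, and at pair means of 0.14 to 0.67 otherwise.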
